A study of Homo sapiens with 12 samples.

Results

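The chromosome band 11q13 holds a block of genes that is often amplified in oral squamous cell carcinoma, and 10 of them were followed here in SCC-15, an established line of that cancer: TPCN2, MYEOV, CCND1, FGF19, FGF3, ANO1, FADD, PPFIA1, CTTN and SHANK2. They were chosen by name as genes of this amplicon, and each matched 1 of the 61044 gene identifiers in the deposited table. The question was whether they shift together between control cells and cells carrying a short hairpin RNA (shRNA) against FMOD, the gene of the collagen-binding proteoglycan fibromodulin. RNA was sequenced from cells with a negative-control shRNA (NC) or with 1 of 3 FMOD hairpins (shRNA1, shRNA2, shRNA3), 3 libraries a group, 12 in all, harvested after 48 h in culture. All 4 groups share the line and the hairpin procedure, and the labels do not say whether the libraries of a group came from separate cultures, so p-values measure only the spread between these libraries. The genes were proposed with their NC against shRNA levels in view, so those values are given as a description with no test. Tests of these 10 were run between the shRNA groups only. Neighbouring genes and genes of pathway lists were tested against NC. The lists too were chosen with earlier results of these data known, so their calls are a description.

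An amplicon is a stretch of chromosome present in extra copies, and its genes are often expressed at a high level together because each copy is transcribed. The 11q13 amplicon of head and neck cancers carries genes with unrelated tasks: a cyclin of the cell cycle, an adaptor of the death receptors, an actin-binding protein, scaffold proteins, ion channels and secreted growth factors. RNA levels alone do not give the number of copies of a gene. Copy number was not measured in these data, and in bulk RNA fewer cells that express a gene and less RNA per cell cannot be told apart.

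On GRCh38 with the GENCODE annotation, the 10 genes lie between chr11:69048897-71252577, a stretch of 2204 kb with 50 annotated genes. From the centromere outwards, TPCN2 lies at chr11:69048897-69162440, MYEOV at chr11:69294138-69367726 and CCND1 at chr11:69641087-69654474. FGF19 follows at chr11:69698232-69704642 and FGF3 at chr11:69809969-69819024, both on the minus strand. ANO1 lies at chr11:70078302-70189528, FADD at chr11:70203163-70207390, PPFIA1 at chr11:70270700-70385312 and CTTN at chr11:70398404-70436584. SHANK2, on the minus strand, closes the stretch at chr11:70467856-71252577. CCND1 overlaps LTO1 on the opposite strand, PPFIA1 and CTTN overlap CTTN-DT, and ANO1 and SHANK2 overlap antisense RNAs. The strand setting of the counting is not given in the sources used here, so reads of such partners may not have been separated.

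RefSeq promoter sequences (GRCh38.p14) were at hand for 5 of the 10 genes. Those of FADD, PPFIA1 and TPCN2 are shown because these 3 genes had their lowest levels in the same pair of libraries, shRNA3 libraries 1 and 2. ANO1 did too, but its RefSeq start lies upstream of the GENCODE gene start used here, and its promoter is not shown. Each is the 250 bases before the RefSeq transcription start, 5′ to 3′ on the plus strand, with GC boxes (GGGCGG, or CCGCCC on the other strand) in capitals. For FADD and TPCN2 that start lies inside the GENCODE gene given above, so the end of each stretch overlaps it.
FADD, chr11:70203046-70203295: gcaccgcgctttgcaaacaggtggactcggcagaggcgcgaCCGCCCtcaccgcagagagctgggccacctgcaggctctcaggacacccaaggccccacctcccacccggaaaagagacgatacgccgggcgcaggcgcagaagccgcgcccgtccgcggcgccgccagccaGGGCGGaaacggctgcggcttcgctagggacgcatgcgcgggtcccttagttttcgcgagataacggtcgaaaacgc
PPFIA1, chr11:70270440-70270689: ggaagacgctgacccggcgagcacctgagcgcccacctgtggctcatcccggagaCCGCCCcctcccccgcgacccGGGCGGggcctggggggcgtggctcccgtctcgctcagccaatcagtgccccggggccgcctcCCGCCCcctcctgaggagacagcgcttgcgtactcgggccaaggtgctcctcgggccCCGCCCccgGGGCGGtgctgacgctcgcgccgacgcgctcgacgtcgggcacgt
TPCN2, chr11:69048682-69048931: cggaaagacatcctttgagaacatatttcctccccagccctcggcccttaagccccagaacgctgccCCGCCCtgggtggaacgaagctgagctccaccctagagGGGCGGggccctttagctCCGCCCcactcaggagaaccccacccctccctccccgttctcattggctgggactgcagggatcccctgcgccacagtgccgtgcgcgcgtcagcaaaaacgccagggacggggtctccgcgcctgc
All 3 stretches are rich in G and C, at 68.8% for FADD, 76.8% for PPFIA1 and 66% for TPCN2, against a median of 58% over 35116 promoters. They hold 32, 33 and 17 CpG dinucleotides, and 2, 5 and 3 GC boxes, in the same order. A GC box was present in 42.6% of all promoters. No match on either strand was found in these 3 for AP-1 (TGANTCA, in 6.57% of all promoters), CRE (TGACGTCA, 1.65%), E2F (TTTCGCGC or TTTGGCGC, 0.968%), the TATA box (TATAAA, 10.7%) or TCF/LEF (CTTTGATC or CTTTGAAC, 1.21%).

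The libraries held 17286934 to 19567192 counts, and 17532 genes passed the filter on low counts. Levels are CPM, counts scaled to a common library total, here by the trimmed mean of M values (TMM). FMOD itself had 2, 2 and 3 counts in NC and 0 in all 9 shRNA libraries, which is too few counts to check the hairpins. A count of 0 allows up to 3 counts, or 0.145 to 0.222 CPM over the libraries. Libraries 1 and 2 of shRNA3 stood apart from shRNA3 library 3 across the transcriptome: their TMM factors were 0.771 and 0.795 against 0.979 to 1.11 in the other 10 libraries. In 18.3% of tested genes their mean (CPM + 0.5) was at least 2-fold below library 3, and in 15.6% at least 2-fold above it. The 10 genes are therefore given library by library. Of 11 markers of squamous epithelium all were tested, and their summed level was 2400 to 2589 CPM in NC, 1609 to 2012 in shRNA1, 1818 to 1887 in shRNA2 and 1611 to 2770 in shRNA3. With all 3 hairpins 3 of them rose (KRT14, KRT6A and KRT17) and 3 fell (KRT5, DSC3 and CDH1), where 16% and 19.7% of all genes did. KRT5, a basal keratin, was at 1009 CPM in NC and 21.4, 80.2 and 74.9 with the hairpins. CDH1, the epithelial cadherin, was at 323 against 38.2, 53.4 and 66.1. KRT14 rose from 7.58 CPM in NC to 55.5, 24.5 and 149. Of other cell types, 4 of 7 fibroblast markers passed the filter. The 7 summed to 56.9 to 59.7 CPM in NC, 15.5 to 21.1 in shRNA1, 44.3 to 48.2 in shRNA2 and 32.8 to 86.6 in shRNA3. COL1A2, LUM and PDGFRB, 3 of the 4, fell with all 3 hairpins, where 19.7% of all genes did. PDGFRB was at 10.7 CPM in NC and 0.765, 1.10 and 0.728 with the hairpins. Of 7 blood lineage markers 2 passed, CD14 and CD68, while PTPRC, CD3E, HBB, CD79A and LYZ did not pass. The 7 summed to 58.8 to 76.4 CPM in NC, 44.5 to 98.0 in shRNA1, 82.1 to 88.1 in shRNA2 and 110 to 238 in shRNA3. CD14 by itself fell, from 4.17 CPM in NC to 0.808, 1.85 and 0.765 with the hairpins. Of 5 endothelial markers 3 passed, with a sum of 17.8 to 23.4 CPM in NC and 3.88 to 13.4 with the hairpins, PECAM1 rising from 0.133 to 2.60, 4.76 and 8.74 CPM and CDH5 falling from 17.3 to 1.94, 2.53 and 1.35. The part of these markers in the results was not tested.

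In NC cells the genes differed widely in level per kilobase of annotated exon. CCND1 was highest at 56.8 ± 1.31 CPM per kb (SD, n = 3), followed by CTTN at 43.1 ± 6.31 and FADD at 26.4 ± 1.82. PPFIA1 had 9.09 ± 0.363 and MYEOV 8.54 ± 0.695 CPM per kb, and these 2 overlapped. TPCN2 was at 1.75 ± 0.133 CPM per kb. SHANK2 (0.541 ± 0.00962), FGF19 (0.445 ± 0.194) and ANO1 (0.335 ± 0.0454) came last, and the NC libraries of FGF19 overlapped those of both its neighbours in this order. FGF3 had 0 counts in all 12 libraries and was not tested, so 9 of the 10 genes passed the filter.

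The 9 expressed genes differed in the size, and some in the direction, of their difference from NC. Their median log2 ratio to NC (of CPM + 0.5) was below 0 in each of the 9 shRNA libraries, from -1.07 to -0.38, where the median of all genes tested was -0.15 to -0.02. Of the 9, 3 (ANO1, SHANK2 and TPCN2) were lower in all 9 shRNA libraries than in all NC libraries, while 25.8% of all tested genes were. None was higher in all 9, a pattern found in 19% of all tested genes. Counted as a description by the edgeR threshold (adjusted p under 0.05), 3 of the 9 were lower and 0 higher with shRNA1, where 57.4% of all genes were called (26.8% higher, 30.6% lower). With shRNA2 the counts were 4 lower and 0 higher, against 53% of all genes called, 24.6% higher and 28.4% lower. With shRNA3 they were 5 lower and 1 higher, against 53.9% called, 26.4% higher and 27.6% lower. Without shRNA3 libraries 1 and 2, a fit that leaves library 3 alone in its group, the shRNA3 log2 difference was -0.15 for CCND1 and -0.92 for ANO1. For TPCN2 it was -0.21 and for PPFIA1 -0.46. It was -5.29 for SHANK2 and -0.26 for MYEOV, the latter a change of direction. For the mean of the 3 hairpins, 6 were lower and 0 higher, where 60% of all genes were called, 27.9% higher and 32.2% lower. Since these contrasts chose the genes, nothing is read from the counts. The summed level of the 9 genes was 745 to 842 CPM in NC, 614 to 664 in shRNA1, 550 to 577 in shRNA2 and 632 to 683 in shRNA3.

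**Figure D1:**
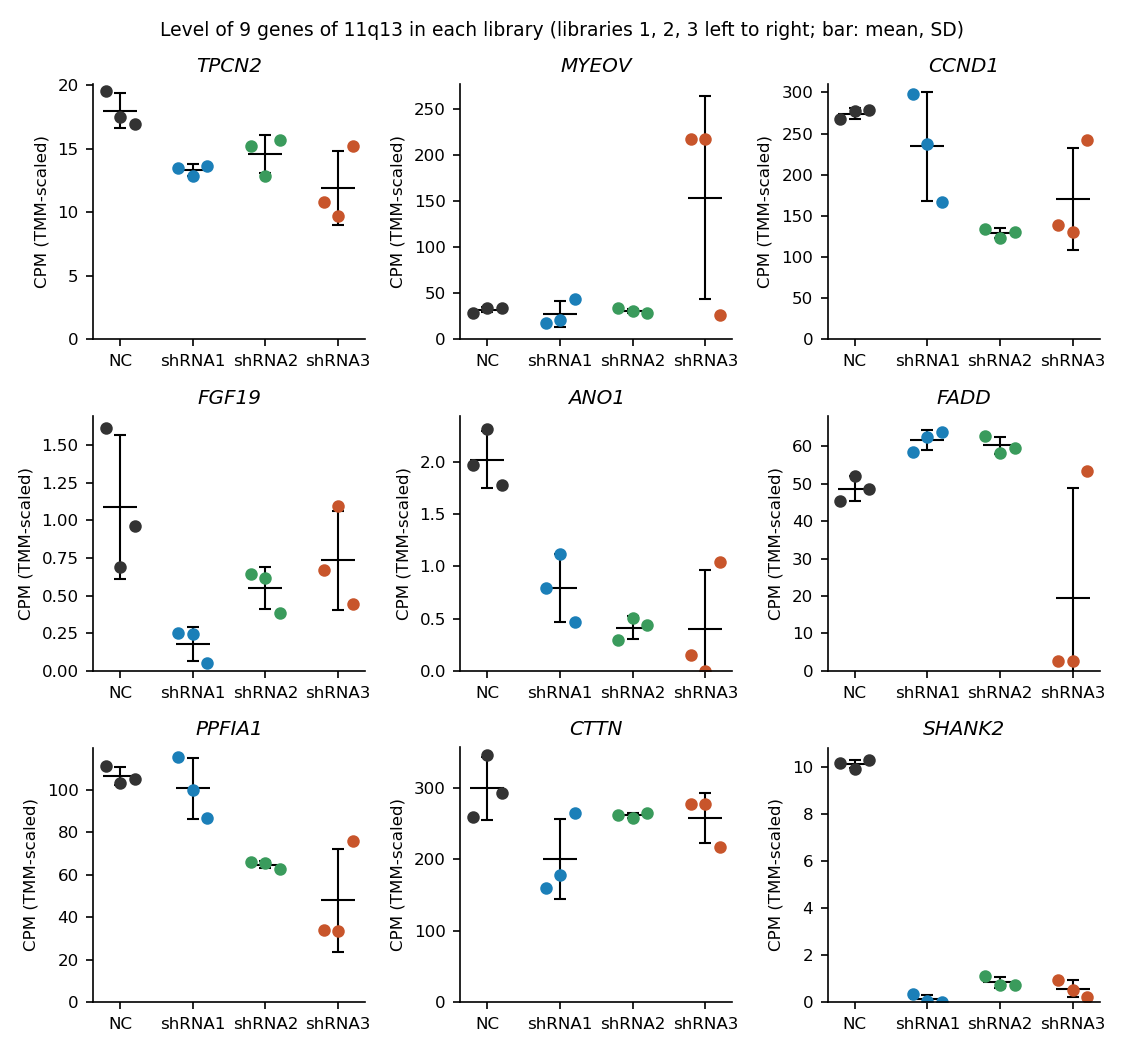
Level of each of the 9 expressed genes (TMM-scaled CPM, linear axis from 0) in the 12 libraries, with points for libraries 1, 2 and 3 from left to right within a group and a bar for the mean and SD. SHANK2 is near 0 in all 9 shRNA libraries, FADD is near 0 in shRNA3 libraries 1 and 2 only, and MYEOV is above 200 CPM in that pair only.

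CCND1 encodes cyclin D1, which binds CDK4 and CDK6 to carry cells from G1 into S phase. It stood at 267, 277 and 279 CPM in the NC libraries. With shRNA1 it was at 298, 238 and 167 CPM, and with shRNA2 at 134, 123 and 130 CPM. The 3 shRNA2 libraries lay together below every NC library, while shRNA1 spread from above NC to well below it. The shRNA3 libraries had 139, 131 and 242 CPM, so that libraries 1 and 2 were near the shRNA2 level and library 3 lay between them and NC. On the log2 scale the differences from NC were -0.23 (SE 0.244) for shRNA1, -1.09 (SE 0.247) for shRNA2 and -0.68 (SE 0.245) for shRNA3.

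CTTN encodes cortactin, which binds branched actin filaments and the Arp2/3 complex at the cell edge. NC libraries held 259, 346 and 292 CPM. The level was 159, 178 and 264 CPM with shRNA1, 262, 258 and 264 with shRNA2, and 277, 278 and 218 with shRNA3. The shRNA1, shRNA2 and shRNA3 groups each overlapped NC, and shRNA1 libraries 1 and 2 lay lowest of all 12. Against NC the log2 values were -0.58 (SE 0.194), -0.20 (SE 0.193) and -0.22 (SE 0.193) for shRNA1, shRNA2 and shRNA3.

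FADD is the adaptor that joins the death receptors to caspase-8. It was at 45.3, 52.0 and 48.6 CPM in NC, 58.6, 62.4 and 64.0 in shRNA1, and 62.8, 58.3 and 59.7 in shRNA2. All 6 of these shRNA libraries lay above all 3 NC libraries. In shRNA3 the level was 2.52 and 2.62 CPM in libraries 1 and 2 and 53.3 CPM in library 3, from 34, 36 and 1073 counts. The 2 low libraries were 20.7-fold below library 3, although they carry the same hairpin by their labels. As log2 differences from NC, the 3 groups had 0.34 (SE 0.827), 0.31 (SE 0.828) and -1.30 (SE 0.846). Without library 3 the shRNA3 difference was -4.24 (SE 0.142), and without libraries 1 and 2, which leaves library 3 alone, it was 0.16.

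PPFIA1 encodes liprin-alpha-1, a scaffold of focal adhesions and cell motility. Its levels were 111, 103 and 105 CPM in NC and 115, 99.7 and 86.9 in shRNA1, 2 groups that overlapped. With shRNA2 all libraries were lower, at 66.2, 65.5 and 62.9 CPM. In shRNA3 libraries 1 and 2 it was 34.3 and 33.7 CPM, below all other libraries, and in library 3 it was 76.0 CPM. Fitted against NC, the log2 fold changes were -0.08 (SE 0.264), -0.71 (SE 0.266) and -1.15 (SE 0.269).

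SHANK2 encodes a scaffold protein of the postsynaptic density that is also made in epithelia. NC libraries had 10.2, 9.95 and 10.3 CPM, from 202, 202 and 203 counts. The level was 0.35, 0.05 and 0.00 CPM with shRNA1 (7, 1 and 0 counts), 1.11, 0.73 and 0.72 with shRNA2, and 0.96, 0.51 and 0.25 with shRNA3. Every shRNA library was thus near or under 1 CPM, and no shRNA group overlapped NC. Mean levels were 11.9-fold and 17.7-fold lower than in NC with shRNA2 and shRNA3, and with shRNA1 the mean was under the floor of 3 counts. The fitted log2 differences were -6.18 (SE 0.740) for shRNA1, -3.56 (SE 0.611) for shRNA2 and -4.17 (SE 0.645) for shRNA3. That for shRNA1 ranged from -8.31 to -5.63 over the fits that left out 1 library.

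TPCN2 encodes a cation channel of lysosomes and endosomes. It was at 19.5, 17.5 and 16.9 CPM in NC, 13.5, 12.8 and 13.7 in shRNA1, 15.2, 12.9 and 15.7 in shRNA2, and 10.8, 9.69 and 15.2 in shRNA3. The difference was small but every shRNA library was below every NC library. Differences from NC on the log2 scale were -0.43 (SE 0.197), -0.30 (SE 0.197) and -0.59 (SE 0.198).

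ANO1, a calcium-activated chloride channel, was barely expressed. Its counts were 39, 47 and 35 in NC, 16, 23 and 9 in shRNA1, 5, 9 and 8 in shRNA2, and 2, 0 and 21 in shRNA3. In CPM that is 1.78 to 2.31 in NC and at most 1.11 in any shRNA library, so the groups did not overlap. On the log2 scale ANO1 differed from NC by -1.34 (SE 0.735), -2.26 (SE 0.786) and -2.21 (SE 0.784). For shRNA3 it was -4.66 without library 3 and -0.92 without libraries 1 and 2.

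Of the fibroblast growth factors, FGF3 was at 0 counts throughout, and FGF19, a secreted factor that acts through FGFR4 with beta-klotho, was low. FGF19 had 32, 14 and 19 counts in NC, 5, 5 and 1 in shRNA1, 11, 11 and 7 in shRNA2, and 9, 15 and 9 in shRNA3. In CPM, shRNA1 (0.05 to 0.25) lay below all other libraries, and shRNA3 (0.45 to 1.09) overlapped NC (0.69 to 1.62). FGF19 differed from NC by log2 values of -2.54 (SE 0.587), -0.98 (SE 0.529) and -0.58 (SE 0.524).

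MYEOV is an oncogene candidate first named in multiple myeloma, and it was the 1 gene of the 9 to stand far above NC in any library. NC had 29.1, 33.6 and 33.6 CPM, shRNA1 had 17.5, 21.2 and 44.2, and shRNA2 had 33.6, 30.6 and 28.7. In shRNA3, libraries 1 and 2 reached 217 and 217 CPM, while library 3 had 26.3 CPM, below NC. Its log2 differences from NC were -0.22 (SE 0.585), -0.05 (SE 0.584) and 2.26 (SE 0.607). The shRNA3 value was -0.26 without libraries 1 and 2, which leaves library 3 alone.

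The pair of shRNA3 libraries 1 and 2 thus had low levels of some neighbours and a high level of another. The shRNA3 difference from NC without this pair was -0.15 for CCND1, -0.46 for PPFIA1 and -0.21 for TPCN2, and without library 3 it was -1.03, -1.65 and -0.81. Both libraries were below the other 10 for FADD, ANO1, PPFIA1 and TPCN2, 4 of the 9, and both were above them for MYEOV, 1 of the 9. Among all tested genes, 21.2% had both libraries below the other 10 and 20.5% had both above. KRT14, another basal keratin, was also at 230 and 192 CPM in these 2 libraries and at 25.1 CPM in library 3, and CDKN1C, a CDK inhibitor, was at 662 and 762 against 75.2 CPM. The labels give no batch that separates these libraries, and the part of what sets them apart in these results was not tested.

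Differences between the hairpins were tested for the 9 genes in 3 pairs, 27 tests in all, with the edgeR quasi-likelihood test and Benjamini-Hochberg adjustment over all 17532 genes. Of the 27 tests 6 passed. For shRNA1 against shRNA2, 2 of the 9 passed, where 12.3% of all genes did (5.78% higher, 6.53% lower). For shRNA1 against shRNA3, 3 passed, where 30% of all genes did (11.9% higher, 18.1% lower), and for shRNA2 against shRNA3, 1 passed, where 8.34% did (1.91% higher, 6.43% lower). CCND1 was higher with shRNA1 than with shRNA2 by 0.86 on the log2 scale (SE 0.246, adjusted p = 0.0433), and SHANK2 was lower (-2.62, SE 0.755, adjusted p = 0.0442). PPFIA1 was higher with shRNA1 than with shRNA3 by 1.07 (SE 0.268, adjusted p = 0.0162), and FGF19 was lower (-1.96, SE 0.605, adjusted p = 0.0336). MYEOV was lower with shRNA1 than with shRNA3 (-2.47, SE 0.612, adjusted p = 0.0154) and lower with shRNA2 than with shRNA3 (-2.31, SE 0.608, adjusted p = 0.0453).

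None of these 6 passed in all 12 fits that left out 1 library each. Without shRNA3 libraries 1 and 2, the PPFIA1 difference was 0.39, the FGF19 difference -1.28, and the MYEOV differences 0.06 and 0.23. That fit leaves 1 library in the shRNA3 group, so no p-value is given for it. In the other direction, FADD passed in no pair with all libraries (shRNA1 against shRNA3 1.65, SE 0.852, adjusted p = 0.155; shRNA2 against shRNA3 1.61, SE 0.852, adjusted p = 0.209). Without shRNA3 library 3 these FADD differences were 4.59 and 4.56, and each passed in that fit only, 1 of the 12. The library left out there is the one that differs from shRNA3 libraries 1 and 2, so no p-value is given. CTTN, TPCN2 and ANO1 passed in no pair with all libraries, and their errors do not show that the hairpins act alike. Without shRNA3 library 3, ANO1 (3.33 and 2.41) and TPCN2 (0.39 and 0.52) passed for shRNA1 and for shRNA2 against shRNA3. CTTN passed in that fit for shRNA1 against shRNA3 (-0.45) and not for shRNA2 against shRNA3.

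The other genes of the same stretch differed among themselves too. Of the 40 that are not listed, 3 passed the filter. LTO1, which supports assembly of an iron-sulfur protein and overlaps CCND1, was at 25.9 ± 0.602 CPM in NC, 23.6 ± 2.90 in shRNA1, 14.5 ± 1.20 in shRNA2 and 5.78, 5.76 and 16.3 in the shRNA3 libraries. It fell with shRNA3 (edgeR adjusted p = 0.0039) and did not pass with shRNA1 (adjusted p = 0.748) or shRNA2 (adjusted p = 0.0566). LINC02747, a long non-coding RNA, was not read in any NC library. With shRNA1, shRNA2 and shRNA3 it stood at 0.729 ± 0.265, 2.91 ± 0.271 and 0.931 ± 0.658 CPM, at least 4.84-fold, 19.3-fold and 6.19-fold higher than a floor of 3 counts per library. LINC02747 passed the filter on low counts only through shRNA libraries, which fixed its direction against NC, so no test is given. CTTN-DT, a divergent transcript, was at 0.896 ± 0.691 CPM in NC and passed with none.

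Genes on both sides of the stretch were mostly lower with the hairpins as well. The median log2 fold change for the mean of the 3 hairpins was -0.65 over the 9 genes and -0.54 over the 12 tested genes of the stretch. It was -0.73 over 168 tested genes within 5 Mb on the centromere side and -1.03 over 58 within 5 Mb on the far side. Over the other 687 tested genes of chromosome 11 it was 0.03, and over all tested genes -0.03. In the flanks 101 of 168 and 39 of 58 genes passed as lower for that mean, where 32.2% of all tested genes did. As higher, 16 and 2 passed, where 27.9% of all tested genes did. The share passing as lower with all 3 hairpins was 30.4% on the centromere side, 51.7% on the far side and 19.7% over all genes. The share passing as higher with all 3 was 5.36%, 1.72% and 16% in the same order.

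**Figure D2:**
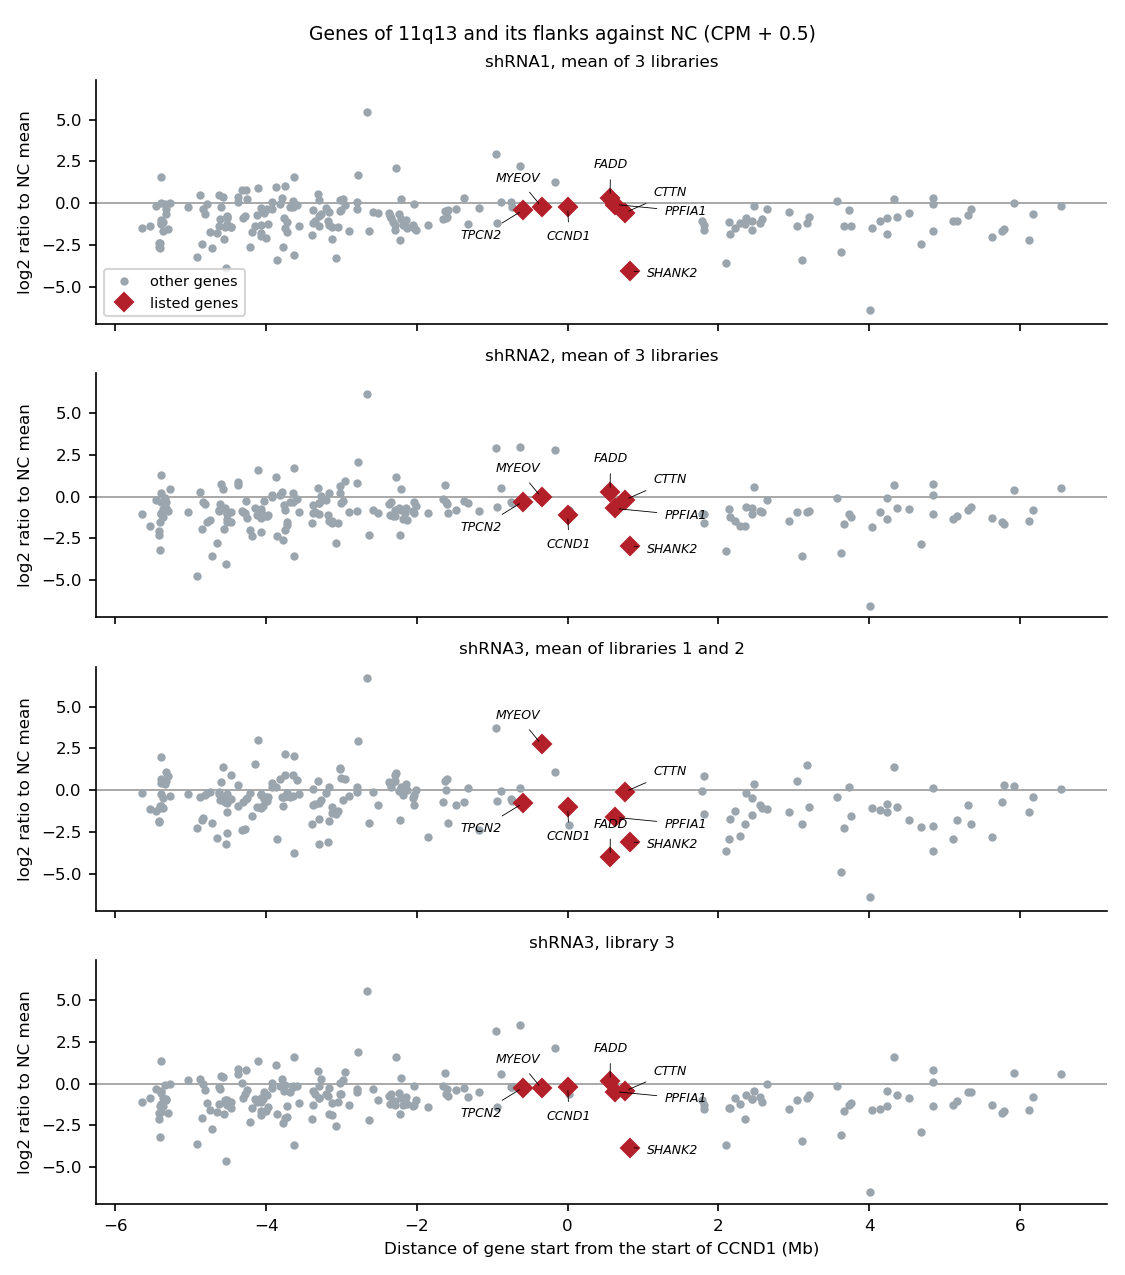
Log2 ratio of the mean CPM + 0.5 of a group to that of NC for genes with a mean of at least 1 CPM, against the distance of the gene start from the start of CCND1 in Mb; red diamonds are 7 of the listed genes and grey points other genes. SHANK2 is low in all 4 panels, whereas FADD is low and MYEOV high only in the panel of shRNA3 libraries 1 and 2.

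Of each flank, the 3 genes with the largest changes that passed in 1 direction with all 3 hairpins are named. On the centromere side, C11orf86 was at 0.0825 CPM in NC and 25.5 ± 3.96, 41.1 ± 5.12 and 49.5 ± 20.5 with the hairpins, and MRGPRF, a G-protein coupled receptor, at 0.133 against 2.52, 4.39 and 2.41 CPM, the last from 0.371, 0 and 6.85 CPM in libraries 1, 2 and 3. TM7SF2, a sterol reductase, was at 24.3 ± 0.413 CPM in NC and 1.19, 1.02 and 1.56 CPM with the hairpins. On the far side all 3 were lower: PLEKHB1 (48.3 ± 1.64 CPM in NC, at most 2 counts in any shRNA library), P2RY6, a nucleotide receptor (26.8 ± 2.82 against 3.06, 2.17 and 1.16), and PGM2L1 (33.2 ± 3.36 against 5.71, 4.17 and 5.84). PLEKHB1 was at least 323-fold, 284-fold and 246-fold lower against the floor. It passed the filter on low counts only through NC, and C11orf86 and MRGPRF only through shRNA libraries, so their directions were fixed by the filter.

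To see how far this reached, chromosome 11 was divided into steps of 5 Mb from the start of CCND1, a division chosen after the values of the flanks were seen. The median for the mean of the hairpins was -0.67 in the step that ends at CCND1 (147 genes), -0.92 in the step that starts there (55 genes) and -1.22 in the following one (39 genes). On the far side it was -1.16 at 20 to 25 Mb (20 genes), and from 40 to 60 Mb the medians were 0.79, 0.50, 0.32 and 1.02. On the other arm it was 0.74 at 60 to 55 Mb before CCND1 and -1.04 at 40 to 35 Mb before it. The lowest median of the chromosome, -2.30, was at 35 to 30 Mb before CCND1. All 15 tested genes there passed as lower, where 32.2% of all tested genes did. The 3 hairpins had medians of the same sign in each of the steps named, and copy number, which was not measured, cannot be told apart from other sources of such steps.

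**Figure D3:**
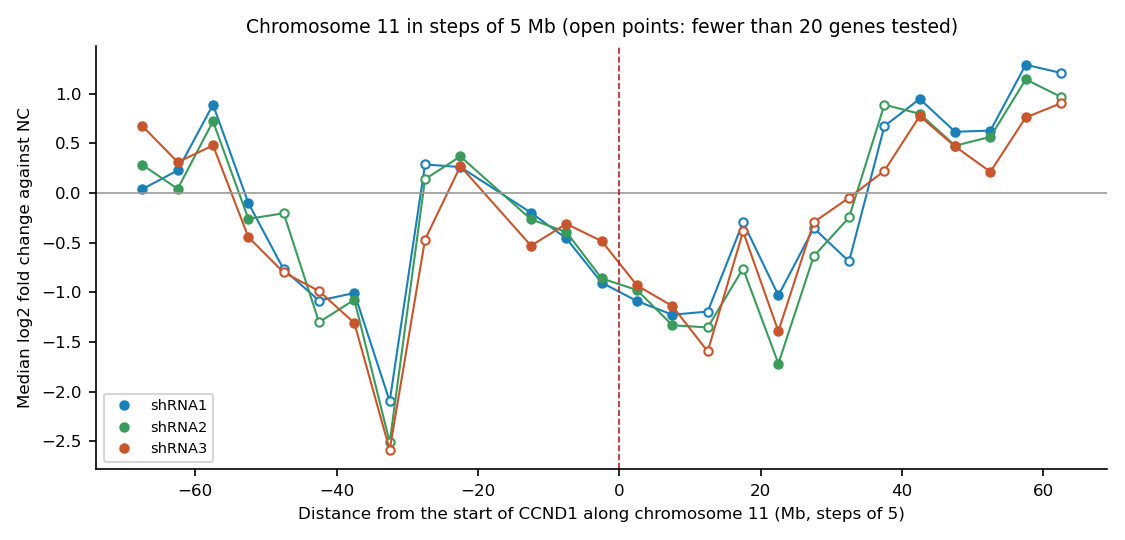
Median log2 fold change against NC of the tested genes in steps of 5 Mb along chromosome 11, for each hairpin, with the start of CCND1 at 0 (dashed line); open points are steps with fewer than 20 tested genes. All 3 lines are below 0 around CCND1 and above 0 from 40 to 60 Mb beyond it.

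The partners of the listed genes were read from lists of their pathways. Around CCND1, all 21 listed genes of G1/S control were tested: 11 rose with all 3 hairpins (16% of all genes did) and 1 fell. Their median log2 fold change was 1.05, against -0.03 over all genes. CCND1's kinases CDK4 (87.3 ± 8.28 CPM in NC, 195 ± 32.1 with shRNA1) and CDK6 (53.7 ± 7.63 in NC; 138, 111 and 98.5 with the hairpins) were among the 11. So were CCND3, the transcription factor E2F2 (2.52 ± 0.265 CPM; 27.3, 46.1 and 35.1) and CDC25A, a phosphatase that activates CDKs (4.81 ± 0.404; 98.1, 62.6 and 34.7). CCND2, another D-type cyclin, was the gene that fell: it was at 36.7 ± 9.03 CPM in NC and 0 counts in all 9 shRNA libraries, at least 245-fold, 215-fold and 187-fold lower against the floor. It passed the filter on low counts only through NC, which fixed its direction. Of the CDK inhibitors, CDKN1A had 444, 506 and 174 CPM in shRNA3 libraries 1, 2 and 3 against 104 ± 4.85 in the controls, and CDKN2D had 162, 170 and 15.5 CPM against 20.4 ± 0.823. Without shRNA3 libraries 1 and 2, a comparison added after the values were seen, the median of the 21 was 0.96, against -0.03 over all genes.

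**Figure D4:**
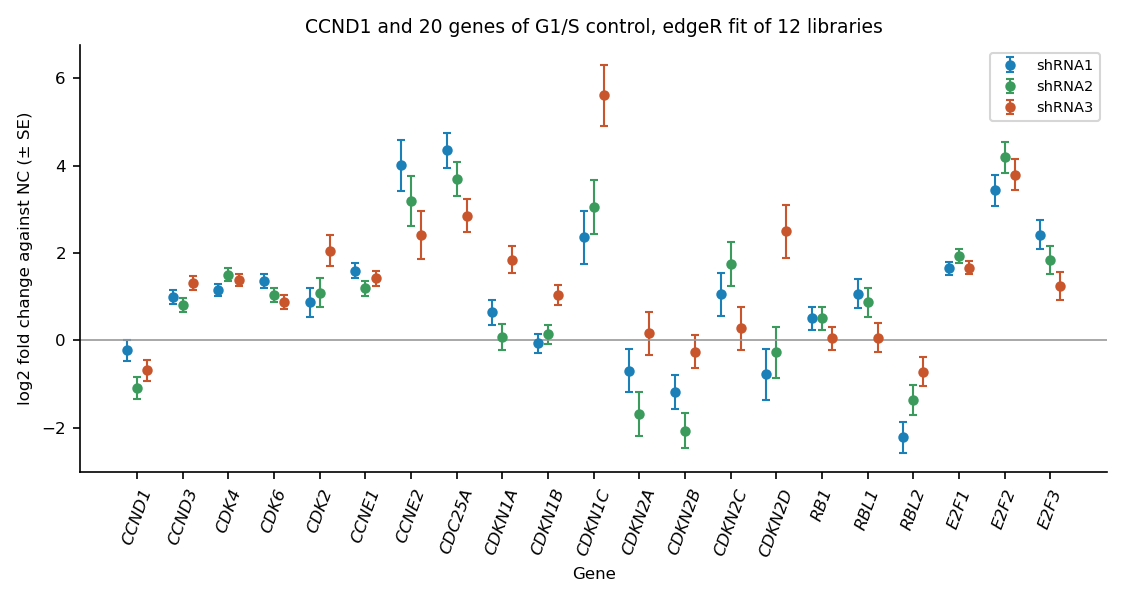
Log2 fold change against NC (edgeR fit of 12 libraries, points with SE) of CCND1 and 20 genes of G1/S control; CCND2, at 0 counts in every shRNA library, is left out. CCND1 is below 0 for each hairpin, while CCND3, CDK4, CDK6, CCNE1, CDC25A and E2F1 to E2F3 are above it.

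FADD's pathway of death receptors had 12 of 13 genes tested. With all 3 hairpins the receptors FAS and TNFRSF10A and the caspase substrate BID rose, where 16% of all genes did. Another 3 fell, where 19.7% of all genes did: the ligand TNFSF10 (35.6 ± 2.84 CPM in NC against 4.28, 7.5 and 5.38), CASP10 (18.1 ± 1.54 against 4.06, 4.08 and 2.74) and the adaptor TRADD (40.6 ± 4.25 against 12.5, 15 and 9.82). CASP8, which FADD binds, was at 31.3 ± 0.724 CPM in NC, passed with no hairpin, and was at 10.8 and 12.6 CPM in the libraries where FADD was near 0 and 38.5 CPM in the third shRNA3 library. Among 18 genes of CTTN's actin network, 2 rose (ACTR3 and ARPC4, subunits of the Arp2/3 complex) and 5 fell with all hairpins, where 16% and 19.7% of all genes did. Their median for the mean of the hairpins was -0.04, and -0.10 without shRNA3 libraries 1 and 2. ARPC4 was at 41.1 ± 3.21 CPM in NC and 217, 193 and 164 with the hairpins, and WIPF1 at 10.2 ± 0.891 against 1, 0.227 and 0.663.

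The receptors that FGF19 and FGF3 bind split. FGFR1 was at 0.286 CPM in NC and 28.6 ± 1.58, 34.5 ± 1.42 and 46.7 ± 12.6 with the hairpins, and FGFR3 rose from 10.7 ± 0.604 to 79.0, 135 and 167 CPM. FGFR2 fell from 34.8 ± 1.67 to 0.779, 0.0195 and 0.645 CPM, and FGFR4, the receptor of FGF19, from 75.9 ± 3.04 to 11.3, 7.75 and 14.1 (each with edgeR adjusted p under 0.05 for all hairpins). FGFR1 passed the filter on low counts only through shRNA libraries, which fixed its direction. KLB and KL, the klotho co-receptors, did not pass the filter. Of 15 paralogs of ANO1, PPFIA1, SHANK2 and TPCN2, 12 were tested: 5 fell with all hairpins (ANO2, ANO4, ANO6, SHANK1 and TPCN1) and 0 rose, where 19.7% and 16% of all genes did, with a median of -0.85. TPCN1 was at 62.7 ± 5.03 CPM in NC and 28.7, 42.1 and 26.6 with the hairpins, and ANO6 at 115 ± 12.3 against 80.7, 70.4 and 60.1.

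The genes whose pattern over the 12 libraries was most like that of CCND1, by Pearson correlation of log2(CPM + 1) among 10215 genes with a mean of at least 10 CPM, were RNF149 (0.974), CACNB3 (0.962), TRIM38 (0.959), SP110 (0.956) and RNMT (0.949). The 10 listed genes were left out of this ranking, so it does not show whether the neighbours follow CCND1. These 5 lie on other chromosomes. The libraries share their group and depth, so these values are a description.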

How the data were processed

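RNA of the SCC-15 line was read in 12 libraries prepared with the NEBNext Ultra kit and sequenced on an Illumina HiSeq instrument, per the labels' protocols. The authors deposited 1 table of gene counts, with HISAT2, HTSeq 0.11.2 and GRCh38 named in the submitters' processing notes; the gene annotation and strand setting are not given in the sources used here. Of the deposited values 13.8% were not whole, so they were treated as estimated counts and rounded. Gene positions came from GENCODE 29, and 58396 of 61044 identifiers had one. Column names matched the sample titles.

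Counts were tested with edgeR 4.0.16 in R 4.3.3: TMM scaling, a filter on low counts (minimum count 10, total 15), a quasi-likelihood fit of all 12 libraries (8 residual degrees of freedom) and Benjamini-Hochberg adjustment over 17532 genes, with a threshold of 0.05 on two-sided adjusted p. Promoters were those of RefSeq on GRCh38.p14. Depth was 17286934 to 19567192 counts a library, and intervals and floors cover counting error only. The edgeR script was tested on simulated data.

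The 10 genes and the lists were chosen with earlier results of these data known. The text names those 10, other genes of the stretch with at least 10 counts in a library, and, of each flank and list, up to 3 with the largest smallest change among those passing with all hairpins at a mean of at least 1 CPM; other list members and markers named were chosen after their values were seen. Alternatives were DESeq2 1.42.0, other size factors, raw totals, no filter, only the groups compared, a replicate block, 2 Mb flanks, and fits without each library or without shRNA3 libraries 1 and 2. The medians of list genes without that pair were added after the data were seen. One gene of the death receptor list is not reported here.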

Additional observations from a re-analysis of the deposited data

Results flagged for a closer look

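Differences between hairpins passed the edgeR test for 5 of the 9 expressed genes, in 6 pairs. CCND1 was higher with shRNA1 than with shRNA2 (log2 0.86, edgeR adjusted p = 0.0433). In 12 fits without 1 library it passed in 4, those without shRNA1 library 3 or any 1 shRNA3 library, with an adjusted p from 0.000672 to 0.183. SHANK2 was lower with shRNA1 than with shRNA2 (-2.62, edgeR adjusted p = 0.0442), from 7, 1 and 0 counts against 19, 13 and 13, and it passed in 4 of the 12 fits, those without shRNA1 library 1 or any 1 shRNA3 library, with an adjusted p from 0.00349 to 0.168.

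PPFIA1 was higher with shRNA1 than with shRNA3 (1.07, edgeR adjusted p = 0.0162), and it failed without shRNA1 library 1 or 2 or shRNA3 library 1 or 2 (8 of 12 fits passed, adjusted p from 3.26e-08 to 0.0663). FGF19 was lower with shRNA1 than with shRNA3 (-1.96, edgeR adjusted p = 0.0336), from at most 15 counts a library in either group, and it passed in 4 of 12 fits, those without NC library 1 or 2, shRNA2 library 3 or shRNA3 library 3 (adjusted p from 0.0076 to 0.131).

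MYEOV was lower with shRNA1 (-2.47, edgeR adjusted p = 0.0154) and with shRNA2 (-2.31, edgeR adjusted p = 0.0453) than with shRNA3. The first passed in 8 of 12 fits and failed without shRNA1 library 1 or 2 or shRNA3 library 1 or 2. The second passed in 2 of 12 fits, those without shRNA1 library 3 or shRNA3 library 3. Both rest on shRNA3 libraries 1 and 2, at 217 and 217 CPM against 26.3 CPM in library 3.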

How the results depend on the processing

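Against NC, the number of genes called stayed within 1.5 times for every hairpin under each alternative run. Raw library totals moved the share of higher calls from 48.9% to 35.1% with shRNA3 and from 46.4% to 36.6% for the mean of the hairpins, and the median of all genes for that mean from -0.03 to -0.21; no listed gene changed direction against NC with any scaling. Without shRNA3 libraries 1 and 2, MYEOV turned to -0.26 with shRNA3, FADD to 0.28 for the mean of the hairpins, and the MYEOV differences from shRNA3 to 0.057 (shRNA1) and 0.23 (shRNA2); without shRNA3 library 3, ANO1 in shRNA2 against shRNA3 turned to 2.41 (-0.60 to 2.41 over all fits without 1 library). Between hairpins the counts were less stable. For shRNA1 against shRNA2 (2158 genes) they were 3464 with the DESeq2 Wald test, 1420 with no filter, 6251 with only the groups compared, 7031 without shRNA3 libraries 1 and 2, and 559 to 7233 without 1 library. For shRNA1 against shRNA3 (5258) they were 0 with only the groups compared (edgeR, 4295 at unadjusted p under 0.05), 1547 without shRNA3 libraries 1 and 2, and 1788 to 11573 without 1 library. For shRNA2 against shRNA3 (1462) they were 3775 with the Wald test, 911 with no filter, 0 with only the groups compared (3186 unadjusted), 596 with raw totals, 244 without shRNA3 libraries 1 and 2, and 0 to 10800 without 1 library, with 0 by edgeR without any 1 shRNA2 library or shRNA3 library 2 (3406 to 4248 unadjusted). The highest value was without shRNA3 library 3 each time. The median of the stretch (-0.54) was -0.71 with raw totals and -0.79 to -0.47 without 1 library; the far flank was -0.98 within 2 Mb. The cause was not tested. Depth limits FGF19, ANO1 and SHANK2, which had few counts with the hairpins.

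No pairing of the libraries by the replicate numbers of the titles was detected, which does not exclude paired cultures. Deviations from group means correlated at a mean of -0.0107 for same-numbered libraries (18 pairs) and 0.00443 for others, and 2 of 12 libraries correlated best with their own number. With the replicate block 378 genes passed for shRNA2 against shRNA3, and CCND1 in shRNA1 against shRNA2 (adjusted p = 0.0734) and MYEOV in shRNA2 against shRNA3 (adjusted p = 0.0741) did not pass by edgeR.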
